A study of Sus scrofa with 8 samples.

Results

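The endothelial cell genes described here are 36 markers of the cells that line blood and lymph vessels, chosen by gene name among the 30550 genes of the deposited table. All 36 names were found, and 35 passed the filter of at least 1 FPKM (fragments per kilobase of gene, scaled for library depth) in at least 4 of the 8 libraries, as did 10757 genes of the whole table. ANGPT2 was the member below the filter. The RNA was extracted from the right ventricle of the pig heart. The groups are PKP2_het, 4 libraries from pigs heterozygous for a PKP2 knockout (PKP+/- in the protocol), and WT, 4 libraries from wild-type pigs. The PKP2 gene codes for plakophilin 2, a desmosome protein of heart muscle cells, and the knockout pigs are presented as a model of arrhythmogenic cardiomyopathy. Age, sex, breed, litter, founder clone and the way the knockout was made are not in the labels used here. Nor do the labels tie libraries to separate pigs, so p-values reflect the spread among libraries, which may be technical. The cell type label reads cardiomyocytes, but the protocol names right ventricular tissue, and endothelial markers were present in every library.

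Endothelial cells share a set of surface and nuclear proteins. PECAM1, VE-cadherin (CDH5), ESAM and claudin 5 hold neighbouring cells together, receptors for VEGF, angiopoietins, BMPs and apelin carry growth and flow signals, and ETS factors such as ERG and FLI1 with SOX17 and SOX18 keep the endothelial programme on. Heart muscle has a dense capillary bed, so these transcripts are readily seen in bulk ventricle. In such tissue, fewer endothelial cells and less RNA per endothelial cell cannot be told apart.

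The fragments behind the FPKM values numbered 23637697 to 31313628 per library. The targeted gene was at 45.4, 40.7, 24.6 and 45.9 FPKM in PKP2_het replicates 1 to 4, against 52.9, 62.2, 61.1 and 72.8 FPKM in WT replicates 1 to 4, so the groups did not overlap (two-sided exact permutation p = 0.0286, the smallest that 70 relabellings can give). With limma, as used for the other genes, PKP2 had a log2 fold change of -0.69 ± 0.20 (SE) and an adjusted p of 0.164, so it was not called. Transcripts of the mitochondrial genome made up 21.1% to 52.1% of fragments in PKP2_het libraries, with the highest share in replicate 3, and 22.0% to 37.6% in WT libraries, with the highest share in replicate 1. Because PKP2_het replicate 3 stood furthest from the other libraries in this share, values are given with and without it. WT replicate 1 also stood apart in its own group, at 37.6% against 22.0% to 24.4%, and some values are given without it.

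No endothelial gene passed the genome-wide test. Limma on log2(FPKM + 1) called 0 of 35 members at a Benjamini-Hochberg adjusted p of 0.05, against 1.86% of all genes tested (0.707% lower and 1.15% higher in PKP2_het), and limma voom on recovered fragments also called 0. At an unadjusted p under 0.05 limma gave 1 member, the apelin receptor gene APLNR, and voom gave APLNR and CLDN5. Among all genes 12.8% reached that unadjusted level with limma, with 5.96% of all genes on the lower side, where APLNR lay, and 12.9% with voom. The log2 fold change (PKP2_het minus WT) was below 0 for 24 of 35 members, against 54.3% of all genes tested. Its median was -0.14 over the members and -0.022 over all genes tested.

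The level of endothelial transcripts differed more between libraries of a group than between the groups. The mean of the 35 members on the log2 scale, centred on all 8 libraries, was -0.47, -0.19, 0.42 and -0.0083 in PKP2_het replicates 1 to 4, against 0.40, 0.11, -0.22 and -0.035 in WT replicates 1 to 4. PKP2_het replicate 3 and WT replicate 1 were thus the highest libraries, PKP2_het replicate 1 was the lowest, and the groups overlapped over most of their range. The group means were -0.062 ± 0.37 in PKP2_het and 0.062 ± 0.26 in WT (SD, n = 4 each), and PKP2_het without replicate 3 was at -0.22 ± 0.23 (SD, n = 3). Summed over all 36 genes, the level was 705, 824, 1370 and 975 FPKM in PKP2_het replicates 1 to 4, against 1332, 1159, 840.0 and 963 FPKM in WT replicates 1 to 4.

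The members moved together across libraries. PKP2_het replicate 3 was the highest library of its group for 30 of 35 members and PKP2_het replicate 1 the lowest for 29. WT replicate 1 was the highest of its group for 29 members and WT replicate 3 the lowest for 23. After subtracting group means, the correlation of a member with the mean of the other members over the 8 libraries had a median of 0.90, and it exceeded 0.9 for 19 of 35 members. With the member mean as the yardstick, 3.38% of all genes tested exceeded 0.9, with a median of -0.16. These points share their libraries and scaling, so the values only describe this set. ESAM (0.99), ENG (0.99), TIE1 (0.98) and ERG (0.97) followed the others most closely, and PLVAP (0.60), FLT4 (0.22) and PROX1 (-0.75) least.

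**Figure D1:**
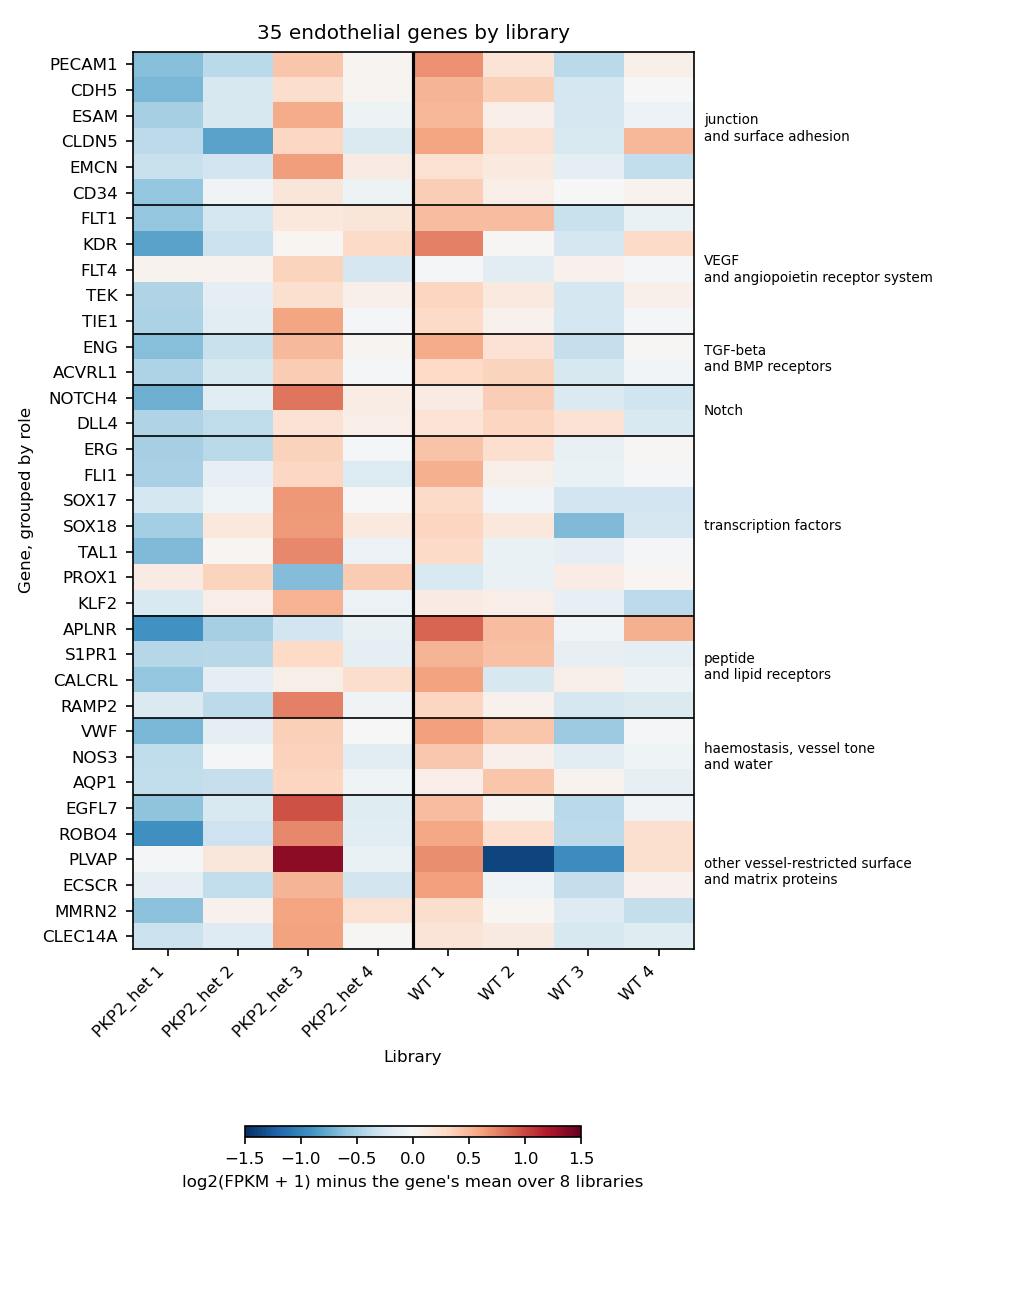
Level of the 35 endothelial genes past the filter (rows, grouped by role) in the 4 PKP2_het and 4 WT libraries (columns), as log2(FPKM + 1) minus each gene's mean over the 8 libraries. PKP2_het replicate 3 and WT replicate 1 are red for most genes, PKP2_het replicate 1 is blue, PROX1 runs the other way, and APLNR is the gene whose groups do not overlap.

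The 2 libraries richest in endothelial transcripts were also the richest in mitochondrial ones. PKP2_het replicate 3 and WT replicate 1, with the highest member means, had mitochondrial shares of 52.1% and 37.6%, against 21.1% to 33.4% in the other 6 libraries. Among those 6 the order differed. PKP2_het replicate 1, with the lowest member mean (-0.47), had a share of 25.7%, and WT replicate 2, with a member mean of 0.11, had 24.4%. The 13 protein-coding genes of the mitochondrial genome had correlations with the member mean of 0.79 to 0.97 in the same centred values. A further list of 29 pan-endothelial genes that are no members (27 tested) had the same 2 libraries on top, WT replicate 1 at 0.39 and PKP2_het replicate 3 at 0.34, and PKP2_het replicate 1 lowest at -0.47. Fibroblast markers had correlations below 0 for 10 of 10 genes, from FBLN1 (-0.83) and DCN (-0.79) to TCF21 (-0.060) and COL1A1 (-0.053). The median correlation over all genes tested was -0.16. The mean of the fibroblast markers was -0.36 in PKP2_het replicate 3 and -0.30 in WT replicate 1. Markers of pericytes and smooth muscle were split, with ACTA2 (0.94), PDGFRB (0.93) and TAGLN (0.92) following the members and ABCC9 (-0.83) and DES (-0.79) opposed to them. The mean of 9 cardiomyocyte markers lay between -0.17 and 0.18 in all libraries, but it averaged genes that differed in sign, from MYH7 (-0.83) and ACTC1 (-0.81) to MYL3 (0.63) and MYL2 (0.74). These examples were picked with their values in view. The part of mitochondrial share and of other cell types in the endothelial level was not tested.

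**Figure D2:**
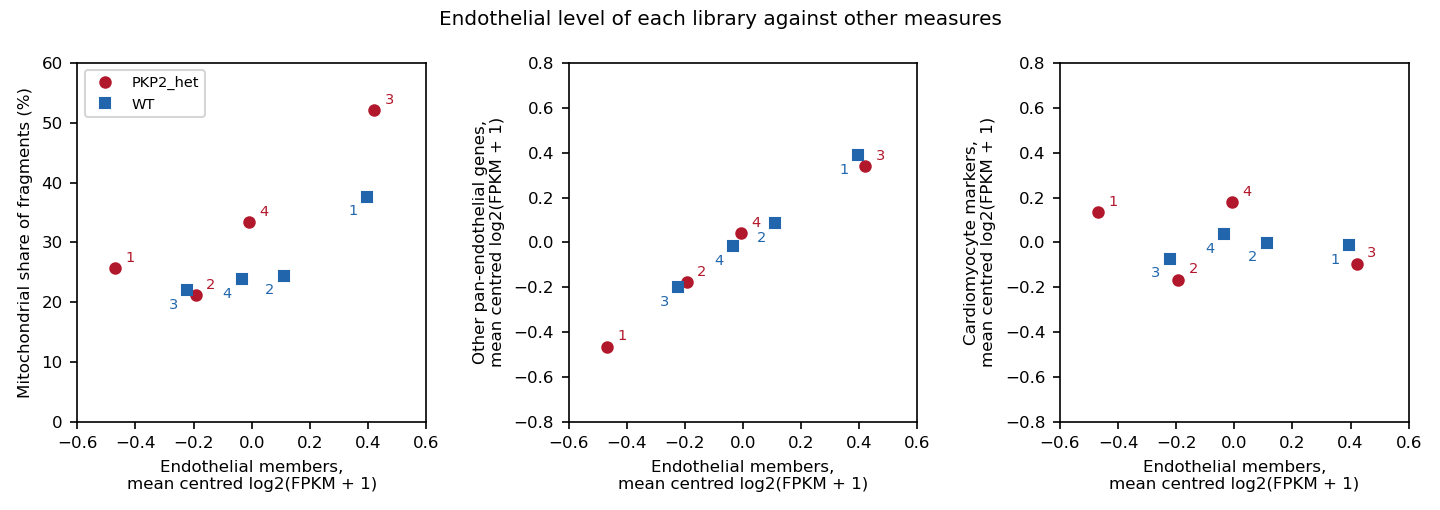
Mean centred log2(FPKM + 1) of the endothelial genes in each library (x axes) against the mitochondrial share of fragments in percent, the mean of 27 other pan-endothelial genes and the mean of 9 cardiomyocyte markers (y axes). Circles are PKP2_het and squares WT, with replicate numbers. The other pan-endothelial genes span -0.47 to 0.39. The cardiomyocyte mean spans -0.17 to 0.18 and averages markers whose correlations with the members run from -0.83 to 0.74.

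Without PKP2_het replicate 3 the members leaned further toward lower levels. The median log2 fold change was then -0.33, against 0.0067 over all genes tested, and 31 of 35 members were below 0, against 48.5% of all genes tested. Limma still called 0 members, against 2.92% of all genes tested, and 8 members were lower at an unadjusted p under 0.05, against 7.48% of all genes (16.6% in either direction). These 8 were AQP1, CLDN5, S1PR1, CD34, ROBO4, ERG, FLI1 and APLNR, and PROX1 was the 1 member higher at that level, against 9.08% of all genes. The median was -0.024 without PKP2_het replicate 1 and -0.014 without WT replicate 1, so the size of the shift depended on single libraries of both groups. Without PKP2_het replicates 3 and 4 the median was -0.43, 31 of 35 members were below 0, against 49% of all genes, and 13 were lower at an unadjusted p under 0.05, against 7.39% of all genes. PKP2_het replicates 3 and 4 had the highest member means of their group, 0.42 and -0.0083, so leaving either out by itself moves the members lower. WT replicate 1, at 0.40, was kept in those fits. Rescaling libraries to equal FPKM sums moved the median of all genes to -0.23. On that scale the median of the members was -0.40, 34 of 35 were below 0, against 85.2% of all genes, and CLDN5, S1PR1, KDR and APLNR were lower at an unadjusted p under 0.05, against 5.04% of all genes.

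**Figure D3:**
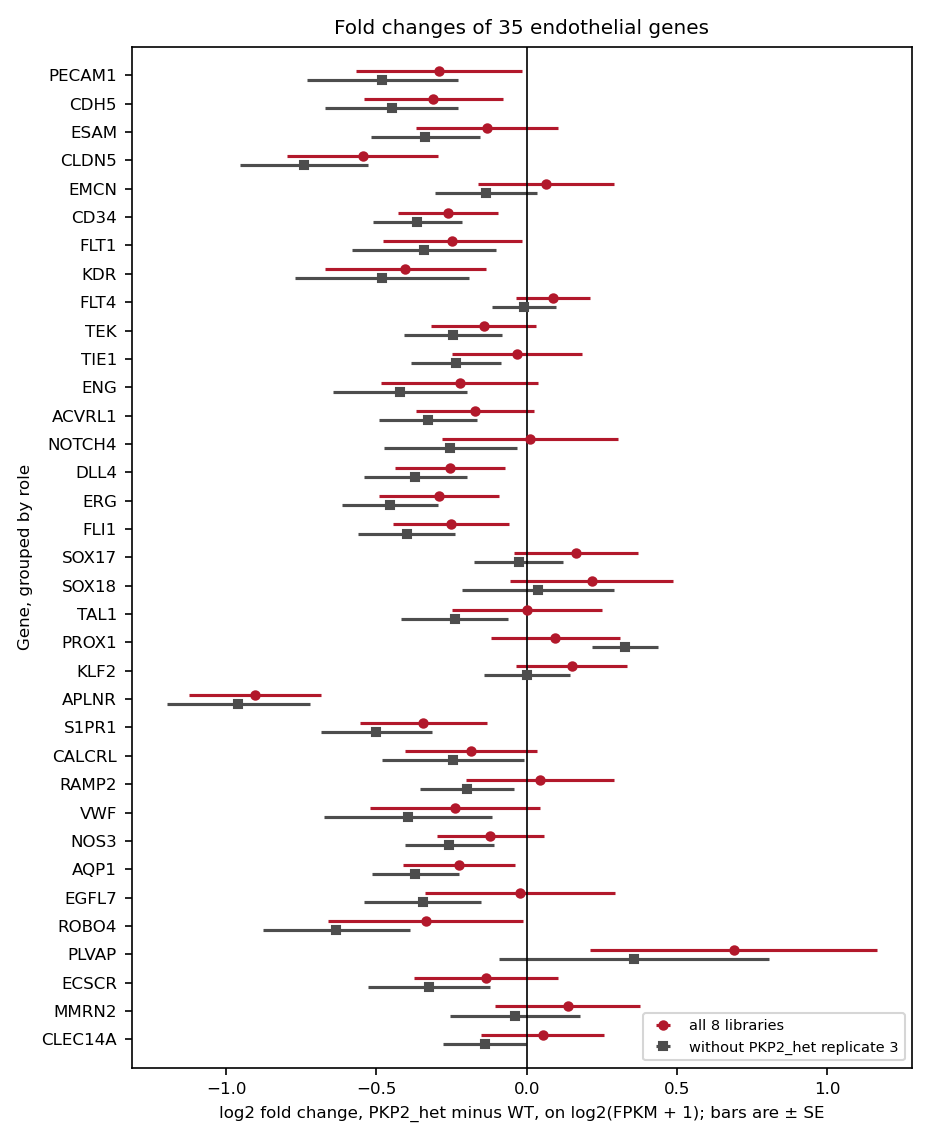
Log2 fold change (PKP2_het minus WT, on log2(FPKM + 1)) with its standard error for each of the 35 endothelial genes, from all 8 libraries (circles) and without PKP2_het replicate 3 (squares). APLNR lies near -0.9 in both fits, and most other genes shift to the left without that library, with PROX1 moving to 0.33.

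Among the genes of cell junctions and the cell surface, 5 of 6 had a log2 fold change below 0, and 0 were called by limma or had an unadjusted p under 0.05. PECAM1, an adhesion receptor at endothelial contacts on chromosome 12 of Sscrofa11.1 (14667643 to 14723296), was at 55.4, 65.2, 116 and 89.6 FPKM in PKP2_het replicates 1 to 4, against 141, 99.9, 65.5 and 92.7 FPKM in WT replicates 1 to 4. CDH5, the cadherin of endothelial adherens junctions, was at 26.3, 36.1, 51.5 and 44.2 FPKM in PKP2_het and 61.6, 55.4, 35.5 and 43.2 FPKM in WT, in the same order. Both genes had overlapping groups and a log2 fold change near -0.3, with a standard error of 0.27 for PECAM1 and 0.23 for CDH5 and limma adjusted p-values of 0.691 and 0.621.

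CLDN5, the tight junction claudin of vessels, lies on chromosome 14 (51161490 to 51162382) and had the largest difference of this role. Its level was 34.8, 25.95, 57.2 and 39.5 FPKM in PKP2_het replicates 1 to 4, against 69.8, 54.0, 39.2 and 65.2 FPKM in WT replicates 1 to 4. PKP2_het libraries averaged 39.4 ± 13.2 FPKM and WT libraries 57.0 ± 13.6 FPKM (SD, n = 4 each). The groups overlapped through PKP2_het replicates 3 and 4 and WT replicates 2 and 3. The log2 fold change was -0.55 ± 0.25 (SE) with a limma adjusted p of 0.407, and -0.74 ± 0.21 with 0.118 without PKP2_het replicate 3. Without WT replicate 1 the CLDN5 value was -0.44 with a limma adjusted p of 0.578. With library quality weights limma called it lower (log2 fold change -0.78, adjusted p = 0.0433), in a fit that called 2 members and 6.13% of all genes.

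ESAM, an adhesion molecule, EMCN (endomucin, a mucin of capillaries and veins) and CD34, a sialomucin shared with progenitor cells, had smaller differences. Their log2 fold changes were -0.13, 0.064 and -0.26, and EMCN was at -0.14 without PKP2_het replicate 3. CD34 was at 13.8, 20.4, 24.02 and 20.1 FPKM in PKP2_het replicates 1 to 4, against 27.5, 22.7, 21.2 and 22.0 FPKM in WT. Only PKP2_het replicate 3 reached into the WT range for CD34, and without it the groups did not overlap, which held for 3 members in the lower direction (CD34, FLI1 and APLNR), against 6.91% of all genes tested. PROX1 was then the 1 member without overlap in the higher direction, and 15.7% of all genes had no overlap in either direction.

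The receptors of the VEGF family were not called. KDR, the main signalling receptor for VEGF-A, on chromosome 8 (41809116 to 41856379), was at 9.33, 13.3, 17.4 and 20.96 FPKM in PKP2_het replicates 1 to 4, against 29.4, 17.2, 14.1 and 20.99 FPKM in WT replicates 1 to 4. Its mean in PKP2_het was 74.7% of that in WT, with a log2 fold change of -0.40 ± 0.27 (SE; limma adjusted p = 0.577). FLT1, a high-affinity receptor that also acts as a decoy for VEGF, was at 13.7, 17.2, 23.4 and 23.8 FPKM in PKP2_het replicates and 29.1, 29.1, 16.4 and 19.4 FPKM in WT replicates. The spread of both genes within a group was as wide as the difference between the groups, and FLT1 had a log2 fold change of -0.25 ± 0.23 (SE; limma adjusted p = 0.689). The ratio of FLT1 to KDR ran from 1.14 to 1.46 in PKP2_het and from 0.926 to 1.69 in WT.

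FLT4, the VEGF-C receptor of lymphatic vessels, was among the lowest members, at 1.08, 1.08, 1.52 and 0.682 FPKM in PKP2_het replicates 1 to 4 and 0.958, 0.779, 1.09 and 0.968 FPKM in WT replicates. Its log2 fold change was 0.086 ± 0.12 (SE) and was -0.052 with equal FPKM sums. TEK, the angiopoietin receptor TIE2, was at 10.03, 12.6, 16.8 and 14.96 FPKM in PKP2_het replicates and 17.9, 15.7, 11.6 and 14.9 FPKM in WT replicates, with a log2 fold change of -0.14 ± 0.18 (SE). The partner receptor TIE1 was at 4.56, 5.93, 10.7 and 6.68 FPKM in PKP2_het replicates and 8.43, 7.10, 5.45 and 6.67 FPKM in WT replicates. These receptors overlapped between the groups, and TIE1 had a log2 fold change of -0.032 ± 0.22 (SE) that was 0.0043 with quantile normalisation. ANGPT2, a ligand released by endothelial cells, was at 0.555 to 1.04 FPKM in PKP2_het and 0.738 to 1.18 FPKM in WT and was not tested.

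The clearest difference among the members was in APLNR, the G-protein-coupled receptor for apelin, annotated on an unplaced scaffold. APLNR was at 3.76, 5.34, 6.34 and 7.28 FPKM in PKP2_het replicates 1 to 4, against 15.4, 11.3, 7.604 and 11.97 FPKM in WT replicates 1 to 4. It was the 1 member whose groups did not overlap, in the lower direction, against 4.33% of all genes tested. Higher levels without overlap were seen for 0 members and 4.86% of all genes, and either direction for 9.19% of all genes. PKP2_het libraries averaged 5.68 ± 1.503 FPKM and WT libraries 11.6 ± 3.20 FPKM (SD, n = 4 each), a PKP2_het level of 49.1% relative to WT. The log2 fold change was -0.90 ± 0.22 (SE) and the limma adjusted p was 0.0872, so APLNR missed the genome-wide threshold. Over 19 alternative settings its log2 fold change ran from -1.16 to -0.75 and its adjusted p from 0.022 to 0.242, and it was called in 2, with library quality weights (0.022) and without WT replicate 3 (0.0412).

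The difference in APLNR was also seen beside the other endothelial genes of the same library, a measure chosen after its values were seen. As a share of the PECAM1 level, APLNR stood at 6.79%, 8.19%, 5.44% and 8.12% in PKP2_het replicates 1 to 4, against 10.9%, 11.3%, 11.6% and 12.9% in WT replicates 1 to 4. Relative to the mean of the other members on the log2 scale, it was between -0.73 and -0.11 in PKP2_het libraries and between 0.17 and 0.59 in WT libraries. On this relative scale ERG also had groups that did not overlap in the lower direction, at -0.22 to -0.012 in PKP2_het and 0.034 to 0.14 in WT. SOX17 did so in the higher direction, at 0.0044 to 0.24 in PKP2_het and -0.26 to -0.062 in WT. Of all genes tested, 0.716% were lower and 3.17% higher without overlap on that scale, or 3.89% in all. These shares are no like background for the members. Subtracting the mean removes the shared movement from members (median correlation 0.90) but not from most other genes (-0.16). Genes that are no members were also set against the mean of all 35 members.

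**Figure D4:**
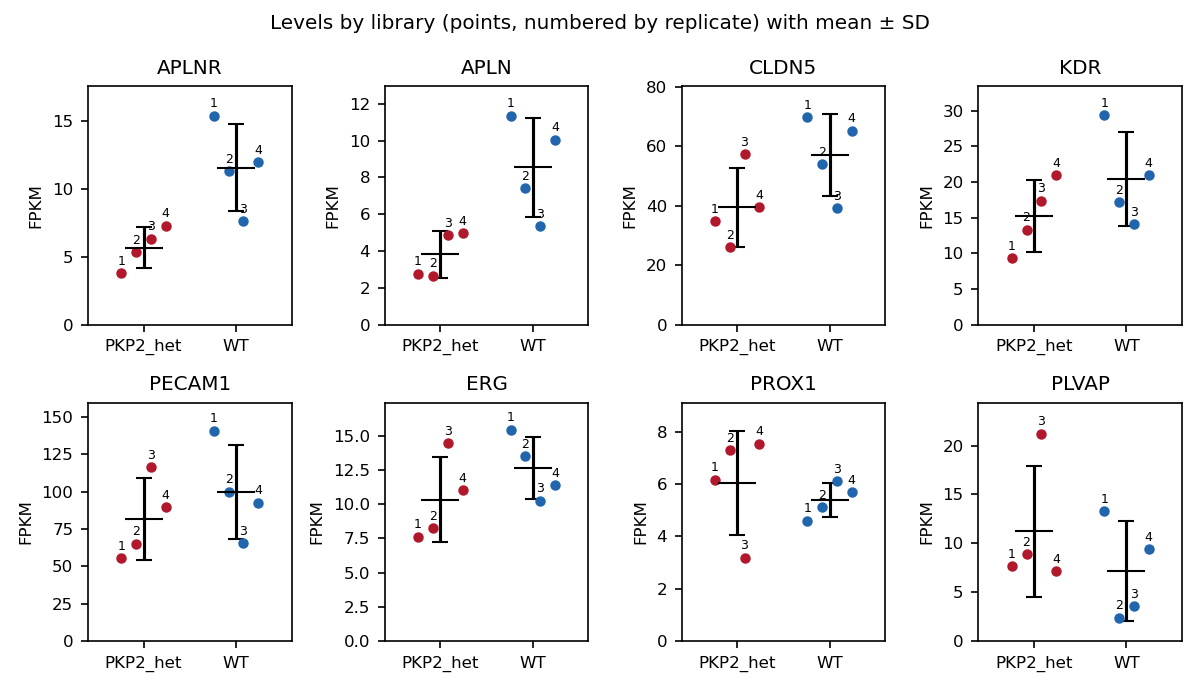
FPKM of APLNR, its ligand gene APLN and 6 endothelial genes in each library (points numbered by replicate, PKP2_het left and WT right), with mean ± SD (n = 4 each). APLNR (3.76 to 7.28 against 7.604 to 15.4 FPKM) and APLN (2.66 to 4.97 against 5.36 to 11.3 FPKM) are separated between the groups, and the other genes overlap.

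The other peptide and lipid receptors overlapped between the groups. S1PR1, the receptor through which sphingosine 1-phosphate tightens the vessel barrier, was at 19.7 to 33.3 FPKM in PKP2_het and 24.3 to 38.8 FPKM in WT, with a log2 fold change of -0.34 ± 0.21 (SE). CALCRL and RAMP2 together form the adrenomedullin receptor. CALCRL was at 5.85 to 11.2 FPKM in PKP2_het and 7.62 to 14.5 FPKM in WT. RAMP2, among the 6 highest members, was at 67.2, 59.9, 133 and 75.7 FPKM in PKP2_het replicates 1 to 4 and 98.6, 81.9, 65.9 and 67.3 FPKM in WT replicates. Its log2 fold change of 0.045 ± 0.25 (SE) became -0.20 without PKP2_het replicate 3, the library that held the highest RAMP2 level.

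ENG (endoglin) and ACVRL1 (ALK1), a co-receptor and a receptor for BMP9 in endothelium, were both below 0 on the log2 scale. ENG was at 37.3, 46.6, 82.7 and 60.6 FPKM in PKP2_het replicates 1 to 4 and 86.7, 68.6, 46.1 and 59.7 FPKM in WT replicates, with a log2 fold change of -0.22 ± 0.26 (SE). ACVRL1 was at 7.40 to 14.01 FPKM in PKP2_het and 8.76 to 13.5 FPKM in WT, with a log2 fold change of -0.17. Of the Notch pair, the ligand DLL4 of tip and arterial cells was at 4.35 to 7.52 FPKM in PKP2_het and 5.25 to 8.14 FPKM in WT. The receptor NOTCH4 was at 5.70 to 18.4 FPKM in PKP2_het and 8.10 to 13.4 FPKM in WT. Their log2 fold changes were -0.25 and 0.011, and the groups overlapped for both.

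The transcription factors did not share a direction, with 3 of 7 below 0, and 0 were called by limma or had an unadjusted p under 0.05. ERG, an ETS factor of mature endothelium, was at 7.62, 8.23, 14.5 and 11.03 FPKM in PKP2_het replicates 1 to 4, against 15.4, 13.5, 10.3 and 11.4 FPKM in WT replicates. Its log2 fold change was -0.29 ± 0.20 (SE; limma adjusted p = 0.588), and -0.45 ± 0.16 with an adjusted p of 0.196 without PKP2_het replicate 3, the only PKP2_het library above all but 1 of the WT libraries. Without WT replicate 1 the ERG value was -0.20 with a limma adjusted p of 0.743. FLI1, a related ETS factor, had a log2 fold change of -0.25. SOX17 and SOX18 of arterial and developing vessels were at 0.16 and 0.22, and at -0.027 and 0.038 without PKP2_het replicate 3. TAL1, a factor of blood and endothelial progenitors, was at 1.03 to 4.28 FPKM in PKP2_het and 1.89 to 2.91 FPKM in WT.

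KLF2, which flow induces in endothelium, and PROX1, the master factor of lymphatic identity that mouse heart muscle cells also express, behaved unlike ERG. KLF2 was at 46.4, 58.6, 78.5 and 51.1 FPKM in PKP2_het replicates 1 to 4 and 59.3, 58.3, 49.9 and 41.4 FPKM in WT replicates, with a log2 fold change of 0.15 ± 0.18 (SE). It was -0.12 after rescaling to equal sums. PROX1 was at 6.17, 7.29, 3.18 and 7.54 FPKM in PKP2_het replicates and 4.603, 5.13, 6.12 and 5.68 FPKM in WT replicates. The lowest PROX1 level was in the PKP2_het library that was the highest of its group for 30 members, and the PROX1 log2 fold change was 0.095 ± 0.21 (SE) with all libraries and 0.33 ± 0.11 without it (limma adjusted p = 0.174). After rescaling to equal sums it was -0.11.

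The genes of haemostasis, vessel tone and water transport all had a log2 fold change below 0 and overlapping groups. AQP1, the water channel of capillary endothelium, had the highest mean of all members and was at 116, 118, 188 and 143 FPKM in PKP2_het replicates 1 to 4, against 160.04, 200.5, 155 and 138 FPKM in WT replicates. Its log2 fold change was -0.22 ± 0.19 (SE; limma adjusted p = 0.655). VWF, the platelet-binding von Willebrand factor, was at 48.4, 71.5, 101 and 78.2 FPKM in PKP2_het replicates and 121, 105, 53.6 and 77.6 FPKM in WT replicates. The lowest library of each group for VWF was the one lowest for most members, and the log2 fold change was -0.24 ± 0.28 (SE). NOS3, the endothelial nitric oxide synthase, was at 9.03 to 15.6 FPKM in PKP2_het and 10.6 to 16.2 FPKM in WT.

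The remaining vessel-restricted proteins were split, with 3 of 6 below 0. PLVAP, which forms the diaphragms of fenestrae and caveolae, varied most. It was at 7.63, 8.88, 21.2 and 7.18 FPKM in PKP2_het replicates 1 to 4, against 13.3, 2.40, 3.56 and 9.40 FPKM in WT replicates, and the log2 fold change was 0.69 ± 0.48 (SE; limma adjusted p = 0.593). ROBO4, a receptor that stabilises the endothelial barrier, was at 7.93 to 26.9 FPKM in PKP2_het and 11.9 to 24.2 FPKM in WT, and its log2 fold change was -0.34, or -0.63 without PKP2_het replicate 3. The secreted protein EGFL7 was at 18.1 to 55.2 FPKM in PKP2_het and 20.9 to 38.9 FPKM in WT. MMRN2 (multimerin 2) of the vessel matrix and its binding partner CLEC14A, a lectin-like surface protein, had log2 fold changes of 0.14 and 0.053, and the small membrane protein ECSCR had -0.13.

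Ligands and co-receptors that act on these receptors included 0 limma calls among 16 tested genes, with 8 below 0, against 1.86% called and 54.3% below 0 among all genes. At an unadjusted p under 0.05, 4 were lower and 1 higher, against 5.96% and 6.88% of all genes. APLN, which encodes the ligand apelin, was at 2.77, 2.66, 4.84 and 4.97 FPKM in PKP2_het replicates 1 to 4, against 11.3, 7.41, 5.36 and 10.05 FPKM in WT replicates 1 to 4. As for its receptor gene APLNR, the groups did not overlap. Of the 16 genes, APLN was the 1 lower without overlap and VEGFB the 1 higher, against 4.33% and 4.86% of all genes. VEGFB was at 90.8 to 96.4 FPKM in PKP2_het and 78.1 to 86.1 FPKM in WT. The log2 fold change of APLN was -0.98 ± 0.24 (SE; limma adjusted p = 0.0912), and it was called in 4 of 19 alternative settings, with adjusted p from 0.0204 to 0.259. EPHB4, a receptor of venous endothelium, was at 4.22 to 6.95 FPKM in PKP2_het and 6.61 to 9.75 FPKM in WT, and its ligand gene EFNB2 of arterial cells at 7.18 to 13.7 FPKM and 11.3 to 17.2 FPKM, in the same order. Their log2 fold changes were -0.47 and -0.53 with limma adjusted p-values of 0.209 and 0.311. ANGPTL4, an inhibitor of lipoprotein lipase, was at -0.55 (adjusted p = 0.343). The tested VEGF family ligand genes, named after their values were seen, were at log2 fold changes of 0.25 for VEGFA, 0.18 for VEGFB, 0.48 for VEGFD and 0.26 for PGF. VEGFD was the 1 gene of the list higher at an unadjusted p under 0.05 (limma adjusted p = 0.371). VEGFA and VEGFB turned to values below 0 (-0.015 and -0.084) after rescaling to equal sums.

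Notch and flow response genes had 11 of 14 genes below 0, against 54.3% of all genes, and 0 limma calls. At an unadjusted p under 0.05, 2 were lower, against 5.96% of all genes. UNC5B, a netrin receptor of vessels, was at 2.53, 3.34, 2.63 and 4.13 FPKM in PKP2_het replicates 1 to 4, against 5.14, 5.01, 4.69 and 5.05 FPKM in WT replicates. It was the 1 gene of the 14 whose groups did not overlap, in the lower direction, against 4.33% of all genes. The UNC5B log2 fold change was -0.54 ± 0.13 (SE; limma adjusted p = 0.0795), called in 3 of 18 alternative settings. CAV1, the coat protein of caveolae, and GJA5, the connexin 40 of arteries and conduction cells, were at -0.48 (adjusted p = 0.26) and -0.52 (0.403). KLF4, a flow-induced factor like KLF2, was at 0.30 (0.659).

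Other endothelial lists gave few differences. Of 27 further pan-endothelial genes 20 were below 0, against 54.3% of all genes, with a median of -0.085 and 0 limma calls. At an unadjusted p under 0.05, 1 was lower, against 5.96% of all genes. Without PKP2_het replicate 3, 26 were below 0, against 48.5% of all genes, with a median of -0.23. In that fit 5 were lower at an unadjusted p under 0.05, against 7.48% of all genes. With all 8 libraries the smallest p-values of this list belonged to GIMAP4, ICAM2, ETS1 and PTPRB. Their log2 fold changes were -0.48, -0.41, -0.43 and -0.36, with limma adjusted p-values of 0.358 to 0.421. Of 8 capillary lipid-handling genes 7 were below 0, against 54.3% of all genes, with a median of -0.081. Of these 8, 0 were called by limma or had an unadjusted p under 0.05, against 1.86% and 12.8% of all genes. FABP4, a fatty acid carrier of capillaries and fat cells, was at 16.1, 12.0, 86.7 and 62.1 FPKM in PKP2_het replicates 1 to 4 and 176, 115, 9.58 and 116 FPKM in WT replicates. The lowest and the highest FABP4 levels were both in WT libraries, and CD36, the fatty acid translocase, was at a log2 fold change of -0.29.

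Markers of veins, endocardium and activated endothelium had 2 of 8 genes below 0, against 54.3% of all genes, and 0 limma calls. At an unadjusted p under 0.05, 2 were higher and 1 lower, against 6.88% and 5.96% of all genes. ACKR1, the chemokine-binding receptor of venules, was at 11.6, 3.80, 19.1 and 9.6002 FPKM in PKP2_het replicates 1 to 4, against 7.41, 1.598, 2.93 and 2.08 FPKM in WT replicates. Only WT replicate 1 reached into the PKP2_het range, and the log2 fold change was 1.40 ± 0.46 (SE; limma adjusted p = 0.213). SELP (P-selectin) and VCAM1, adhesion molecules for white blood cells, were at log2 fold changes of 0.90 and 0.63 with adjusted p-values of 0.256 and 0.414. Platelet markers summed to 0.692 to 1.33 FPKM in PKP2_het and 0.793 to 1.05 FPKM in WT.

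Among the lymphatic markers, PDPN (podoplanin, a mucin-like protein of lymphatic vessels that some stromal and epicardial cells also carry) rose. It was at 13.2, 11.4, 11.4 and 12.8 FPKM in PKP2_het replicates 1 to 4, against 7.09, 5.05, 4.58 and 5.01 FPKM in WT replicates. The log2 fold change was 1.05 ± 0.13 (SE; limma adjusted p = 0.00374), and it kept its call in 18 of 19 alternative settings, losing it after rescaling to equal sums (adjusted p = 0.393). PDPN was the 1 call among 5 tested lymphatic genes, against 1.86% of all genes tested, and the 5 include the members PROX1 and FLT4. The other tested lymphatic genes overlapped between the groups. CCL21, the chemokine of lymphatic endothelium, was at 7.79 to 42.5 FPKM in PKP2_het and 18.5 to 28.7 FPKM in WT. The hyaluronan receptor LYVE1 was at 0.563 to 1.99 FPKM and 1.15 to 1.75 FPKM, in the same order. TBX1, below the filter and so not tested, was higher without overlap, at 0.884 to 1.58 FPKM in PKP2_het and 0.471 to 0.674 FPKM in WT. MMRN1 and RELN, also below the filter, overlapped. Their means were 0.533 and 0.477 FPKM in PKP2_het and 0.421 and 0.343 FPKM in WT. Mesothelial and epicardial markers summed to at most 1.07 FPKM in PKP2_het and 2.96 FPKM in WT.

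Markers of other cell types of the ventricle gave the following values beside these results. Lymphocyte markers summed to 4.97 to 8.78 FPKM in PKP2_het and 13.9 to 15.7 FPKM in WT, and GNLY (granulysin, a protein of cytotoxic lymphocytes) fell, with a log2 fold change of -2.23 ± 0.17 (SE; limma adjusted p = 0.000139). GNLY averaged 0.641 FPKM in PKP2_het and 6.56 FPKM in WT and so made up most of the difference in that sum. The 4 tested lymphocyte genes were all below 0, against 54.3% of all genes. JCHAIN was at 2.62 and 2.91 FPKM, NKG7 at 1.68 and 1.79 FPKM and CD2 at 0.747 and 1.15 FPKM, in the same order. Below the filter, CD3D was at 0.351 and 0.904 FPKM, CD3E at 0.436 and 0.734 FPKM and CD79A at 0.373 and 0.634 FPKM. CD79B was at 0.0652 and 0.125 FPKM, and MS4A1 was higher in PKP2_het, at 0.066 and 0.0463 FPKM. Macrophage markers summed to 22.6 to 61.9 FPKM in PKP2_het and 41.4 to 56.3 FPKM in WT. Of the tested ones 8 of 8 were below 0 with 0 limma calls, against 54.3% and 1.86% of all genes. Pericyte and smooth muscle markers summed to 1761 to 2298 FPKM in PKP2_het and 1431 to 1985 FPKM in WT, and fibroblast markers to 382 to 759 FPKM and 398 to 638 FPKM, in the same order. Red blood cell markers ranged widely in both groups, at 92.5 to 438 FPKM in PKP2_het and 53.0 to 517 FPKM in WT. No list had a marker at 0 in every library, and the part of cell composition in the endothelial values was not tested.

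Outside the list, the 10 genes with a symbol whose group-centred level followed the member mean most closely over the 8 libraries were HIP1R, ASAP1, ADCY4, SRGAP2, HES1, GAL3ST4, PLOD3, MAP4K3, PLEKHG5 and FAM129B, with correlations of 0.986 to 0.998. HES1 is a Notch target gene and ADCY4 an adenylate cyclase. Their log2 fold changes ran from -0.48 to 0.27, and none was called by limma (lowest adjusted p = 0.524).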

How the data were processed

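RNA from right ventricular tissue was sequenced as 150 bp read pairs from 1 µg per sample, and HISAT2 2.0.5 was the aligner, per the labels' protocols. For counting and annotation, the program and release are not stated in the labels. The values are FPKM as deposited by the authors, 1 column per library. Of 30550 genes, 30335 matched the RefSeq table of Sscrofa11.1 with the same start and end. Multiplied by gene length, 100% of values fell on whole multiples of 1 fragment (tolerance 0.01), which gave back fragments per gene. The FPKM scaling equals median-of-ratios factors over 15715 genes, so a level is relative to the typical gene of its library.

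The genes that reached 1 FPKM in 4 or more of the 8 libraries were compared as log2(FPKM + 1), which understates changes of low genes, with limma 3.58.1 in R 4.3.3 (variance trend, two-sided, Benjamini-Hochberg adjustment over 10757 genes at 0.05). The members and gene lists were chosen with earlier results of these data known. Members were described singly where the unadjusted p was under 0.05, groups did not overlap, the mean was among the 6 highest, or the gene was 1 of 11 fixed names, and lists by up to 4 smallest p-values; any further gene was picked with its values in view. In simulated fragments for PKP2_het against WT (10787 genes tested), the fit recovered 83.7% of 2-fold and 97.9% of 4-fold changes. Of its calls, 5.35% were unchanged genes. The 200 changed genes were drawn at random from those past the filter. Fragments were drawn for each gene independently, so the simulation lacked the movement that genes of a library share in the data. These rates need not hold for the data or for the members. APLNR, at 49.1% of the WT level, was not called in the data (limma adjusted p = 0.0872). Promoter and protein sequences were not used here.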

Additional observations from a re-analysis of the deposited data

Results flagged for a closer look

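Of 78 groups of 4 libraries tested for a single library far from the rest (Dixon's ratio at its 95% critical value, which chance gives in about 1 of 20 groups), 2 met the limit. PLVAP was at 21.2 FPKM in PKP2_het replicate 3, whereas the other 3 ranged over 7.18 to 8.88 FPKM. The mitochondrial share of fragments was 37.6% in WT replicate 1, against 22.0% to 24.4% in the other WT libraries.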

How the results depend on the processing

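The median log2 fold change of the members, -0.14, was between -0.43 (without PKP2_het replicates 3 and 4) and -0.014 under the 19 alternatives, so its size depended on the libraries used. It was -0.40 with equal FPKM sums and -0.33 to -0.014 when 1 library was left out. Called members numbered 2 with library quality weights (APLNR and CLDN5), and 0 to 1 when 1 library was left out. Genome-wide calls, 124 higher and 76 lower, became 39 and 28 with a mean of at least 5 FPKM, 50 and 45 with equal FPKM sums, 367 and 292 with library quality weights, and 75 to 195 higher and 40 to 119 lower when 1 library was left out. The replicate block gave 66 and 39. The labels do not say whether same-numbered libraries are pairs. Deviations of same-numbered libraries correlated at -0.39 to 0.20, which cannot decide this, since 4 pairs are few and a shared litter or batch may leave weak correlations. Of 718 single-gene values under alternatives, 21 had the other sign and 15 crossed the threshold; the cause was not tested. Log2 fold changes of the other sign with equal sums were -0.052 for FLT4, -0.12 for KLF2, -0.11 for PROX1, -0.22 for RAMP2, -0.015 for VEGFA and -0.084 for VEGFB. With quantile normalisation RAMP2 was at -0.0065 and TIE1 at 0.0043, with quality weights RAMP2 at -0.20, and without PKP2_het replicates 3 and 4 RAMP2 at -0.28 and VEGFA at -0.14. Leaving out 1 library gave -0.69 to 0.074 for CCL21, -0.0086 to 0.19 for FLT4, -0.016 to 0.33 for PROX1, -0.20 to 0.18 for RAMP2 and -0.24 to 0.12 for TIE1. FLT4, UNC5B, GIMAP4 and SELP did not reach the stricter filter, so they have no value there. The lowest members rested on 110 to 215 fragments per library for FLT4 and 156 to 281 for ANGPT2.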
